A study of Mus musculus with 5 samples.

Results

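The cells described here were 145 cells of the MEP gate, the megakaryocyte-erythroid progenitor gate of mouse bone marrow, each with 5 or more UMIs (unique molecular identifiers, one per captured mRNA molecule) of Pf4. They were chosen from the 6284 MEP cells with 500 or more detected genes and at most 10% of UMIs from mitochondrial genes, and from 28894 such cells in the series. They made up 2.31% of the kept MEP cells (95% exact Clopper-Pearson interval 1.95 to 2.71%). The other 6139 MEP cells were the comparison. Because Pf4 UMIs chose the cells, the levels of Pf4 below are a description, and so are the differences in every other gene of the same cells.

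The series profiled sorted bone marrow cells of wild type C57BL/6 mice, described as healthy controls, by droplet-based single-cell RNA sequencing of transcript 3' ends (10x Genomics). The MEP library held Lin-KIT+SCA1-CD34-CD16/32- cells. The other libraries used were CMP (common myeloid progenitors, CD34+CD16/32-), LSK (Lin-SCA1+KIT+ stem and multipotent cells) and GMP (granulocyte-monocyte progenitors, CD34+CD16/32+), all from the same strain and genotype with no treatment. The labels give no age and no number of animals, and each gate had 1 library, so intervals cover counting error only and no test of replicates could be made. The 4 libraries held between 3713 and 10870 kept cells and between 26919088 and 80273121 UMIs, and 36 to 87 cell barcodes of MEP recurred in each of the other libraries. Of the Pf4 cells, 2 shared a barcode with an LSK cell, and 0 with a CMP or GMP cell.

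Megakaryocytes are the giant polyploid marrow cells that shed platelets. Their progenitors share the MEP gate with erythroid progenitors, and transcription factors of the GATA, ETS and RUNX families set the platelet genes while KLF1 drives the erythroid ones. Pf4 encodes platelet factor 4 (CXCL4), a chemokine packed into platelet alpha granules, and its promoter drives the Cre line most used to delete genes in megakaryocytes. Itga2b and Itgb3 encode the 2 chains of the platelet fibrinogen receptor.

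The promoters of 3 of the genes that set these cells apart are shown because the genes were high together: Pf4 itself, Itga2b (CD41) and Gp9, a subunit of the von Willebrand factor receptor. Each runs from 250 bases before to 50 bases after the gene start (RefSeq, GRCm38.p6). Capitals mark matches, on either strand, to GATAA, the core that GATA factors bind, and to AGGAAG, a form of the core that ETS factors bind. The strings do not overlap in these windows.
Pf4, chr5:90772185-90772484, plus strand: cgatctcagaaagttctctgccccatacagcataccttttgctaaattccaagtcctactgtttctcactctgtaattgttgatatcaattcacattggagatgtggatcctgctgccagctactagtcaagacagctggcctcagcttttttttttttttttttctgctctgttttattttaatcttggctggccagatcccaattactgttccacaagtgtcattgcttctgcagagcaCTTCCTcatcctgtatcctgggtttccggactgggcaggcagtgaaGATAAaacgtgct
Itga2b, chr11:102469834-102470133, minus strand: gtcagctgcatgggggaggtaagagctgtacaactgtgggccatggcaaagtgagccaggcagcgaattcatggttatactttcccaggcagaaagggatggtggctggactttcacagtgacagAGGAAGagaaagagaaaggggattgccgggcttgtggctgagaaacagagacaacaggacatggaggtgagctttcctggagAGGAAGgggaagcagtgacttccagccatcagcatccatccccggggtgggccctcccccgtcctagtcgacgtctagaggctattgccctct
Gp9, chr6:87777820-87778119, plus strand: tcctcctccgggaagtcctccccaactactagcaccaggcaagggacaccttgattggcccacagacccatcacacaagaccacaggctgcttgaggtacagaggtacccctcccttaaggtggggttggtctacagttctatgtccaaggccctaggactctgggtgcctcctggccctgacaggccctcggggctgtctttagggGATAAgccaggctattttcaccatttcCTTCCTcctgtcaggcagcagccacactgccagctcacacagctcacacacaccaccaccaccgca
The windows of Pf4 and Gp9 each held 1 match to GATAA and 1 to AGGAAG. The Itga2b window held 2 matches to AGGAAG and 0 to GATAA. The windows of other high genes differed: Gp1bb held 1 match to AGGAAG alone, Plek 1 to GATAA alone, and Treml1 and Ppbp held 0 of either. Among 32851 promoters of the same length, 25.4% held GATAA, 35.4% held AGGAAG and 9.19% held both, so such matches are common. A match describes letters in the window, and binding was not measured.

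In the GENCODE M21 annotation of GRCm38, Pf4 (ENSMUSG00000029373) lies on the plus strand of chromosome 5 at 90772435 to 90773383. Itga2b (ENSMUSG00000034664) lies on the minus strand of chromosome 11 at 102453297 to 102470122, and Itgb3 (ENSMUSG00000020689) lies on the plus strand of the same chromosome at 104608000 to 104670476. All 3 are protein-coding genes.

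Pf4 UMIs were concentrated in few cells. The Pf4 cells held between 5 and 171 Pf4 UMIs with a median of 28, and 69 of them held 30 or more. Of the other MEP cells, 5813 held no Pf4 UMI, 284 held 1, 23 held 2, 9 held 3 and 10 held 4. The 145 cells thus carried 93.5% of the 6092 Pf4 UMIs of the library. Just outside the threshold were the 10 cells with 4 UMIs, and just inside it were 4 cells with 5 and 6 cells with 6.

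Pf4 UMIs were also found in cells of the GMP gate. In GMP, 125 of 8027 cells had a Pf4 UMI (1.56%, median depth 9100 UMIs per cell), against 471 of the 6284 MEP cells (7.50%, median depth 12578 UMIs). At 5 or more UMIs the GMP share was 0.0747%, or 6 cells. These 6 cells held 191 of the 320 Pf4 UMIs of that library, with a median of 28 per cell. The same rule found 128 of 3713 CMP cells (3.45%) and 192 of 10870 LSK cells (1.77%).

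The label of megakaryocyte progenitors was checked against 13 other megakaryocyte markers. At least 1 UMI of them was found in 143 of the 145 Pf4 cells, and also in 2735 of the 6139 other MEP cells. The Pf4 cells held between 0 and 37 such UMIs with a median of 8, while the other MEP cells held between 0 and 9 with a median of 0. Summed over cells, these markers took 1382 CPM (UMIs per 1000000 UMIs) in Pf4 cells and 52.5 CPM in the other MEP cells. Of the named marker genes, Itga2b was found in 105 Pf4 cells and Itgb3 in 18, with 17 cells holding both. Tubb1, the platelet beta tubulin, had 0 UMIs in both groups, and Gp1ba had 1 UMI in Pf4 cells; both are named for their low counts, after their values were seen. In ratios, a count of 0 over the Pf4 cells was set to 3 UMIs, which is 3.11 CPM, and a count of 0 does not show absence. The markers named with the label were thus present.

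The Pf4 cells were shallower than the rest of the gate. They had a median of 5565 UMIs (range 3227 to 26630) and 2069 genes per cell, against 12754 UMIs (range 3196 to 41952) and 3159 genes in the other MEP cells. Mitochondrial shares were alike, with medians of 3.19% and 3.18%. When each cell was thinned to 3000 UMIs, which left out 0 cells, the medians were 1368 genes in Pf4 cells and 1322 in the other MEP cells. Of the 316 MEP cells with the highest doublet scores (5.03%), 15 were Pf4 cells (10.3% of them) and 301 were other MEP cells (4.90%).

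Erythroid UMIs were found in every Pf4 cell, and a small subset carried them at a share near that of the other MEP cells. UMIs of 28 erythroid markers made up a median of 2.69 per 1000 UMIs in Pf4 cells (range 0.541 to 14.9) and 11.99 per 1000 in the other MEP cells (range 0.770 to 32.7). A total of 131 Pf4 cells lay below 6.53 per 1000, the 5th percentile of MEP cells with no Pf4 UMI, and 14 lay above it. The 14 erythroid-rich cells had a median of 14874 UMIs, and 12 of them were among the highest doublet scores. The 131 erythroid-poor cells had a median of 5363 UMIs, and 3 were among those scores. Car1 (carbonic anhydrase 1, an early erythroid gene) stood at 3753 CPM in the erythroid-rich cells and 436 CPM in the erythroid-poor ones, and Pf4 at 1602 and 7113 CPM. The 14 cells supplied much of the erythroid RNA of the group, and values without them are given below where they matter.

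**Figure D1:**
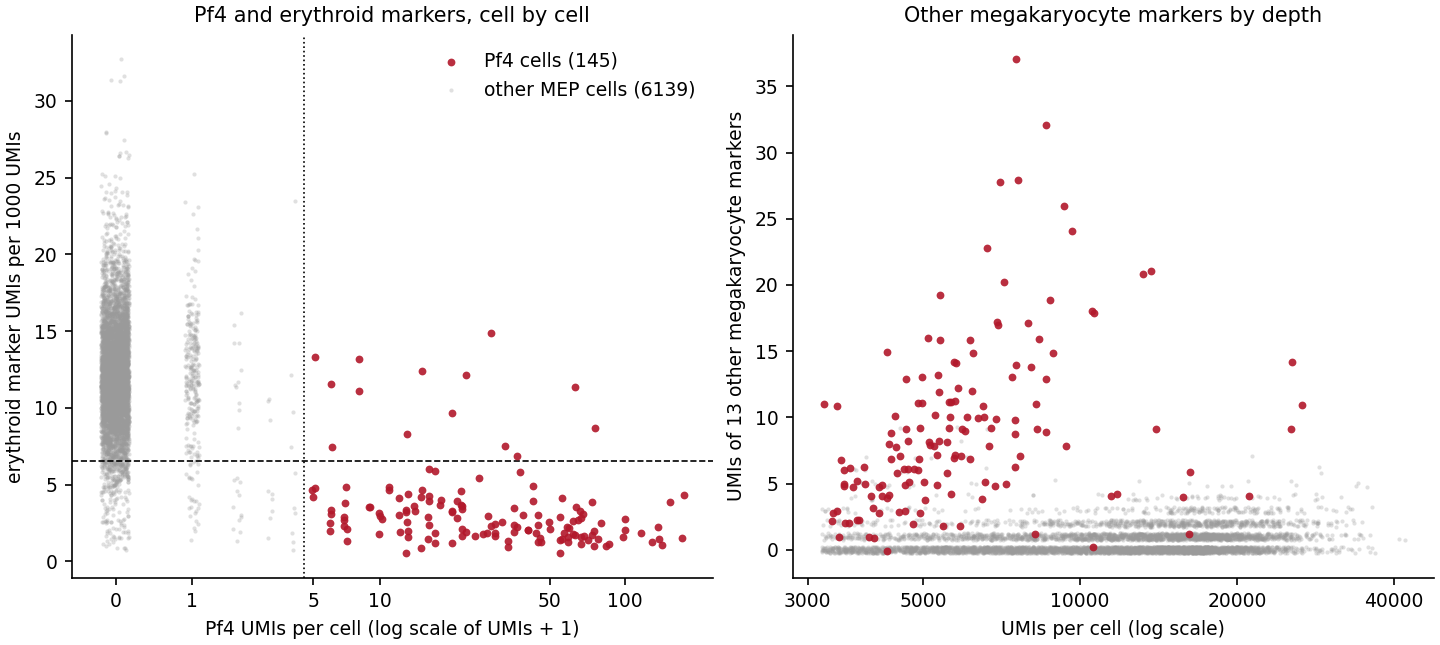
Each point is 1 MEP cell, with the 145 Pf4 cells in red and the 6139 other MEP cells in grey, and small horizontal or vertical jitter separates equal counts. Left, Pf4 UMIs against erythroid marker UMIs per 1000, with the dashed line at 6.53 per 1000 and the dotted line between 4 and 5 Pf4 UMIs; right, UMIs per cell against UMIs of the 13 other megakaryocyte markers. Of the Pf4 cells, 131 lie below the dashed line, and their megakaryocyte UMIs reach 37, against 9 in the other MEP cells.

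Across the transcriptome, a gene was counted as higher or lower where the larger of both summed levels was 50 CPM or more and the ratio was 2-fold or more. Of 3087 genes at 50 CPM, 255 were higher in Pf4 cells (8.26%) and 104 were lower (3.37%). These shares come from the contrast that chose the cells, and the list counts below are descriptions beside them. The median log2 ratio was 0.18 over 10672 genes with a mean of 1 CPM or more. Scaling by median-of-ratios or TMM factors moved all genes by 0.19 on the log2 scale and made the split 187 higher and 179 lower, so that 51.1% of the called genes were higher, against 71.0% with totals. Among the 10 largest ratios upward were those of Pf4, Gucy1a3, Serpine2, F2rl2, Gp1bb, Sdpr, Plek, Ptgs1 and Treml1. Among the 10 largest downward were those of Lgals1, Gadd45a, Hbb-bt, Slc25a21, Car1, Cldn13, Tspo2, Hba-a1 and St3gal5. Platelet genes filled the upward end and several erythroid list genes stood at the downward end.

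Receptors that let platelets stick to the vessel wall were high in the Pf4 cells. Of the 19 genes of this list, 8 were counted as higher and 0 as lower, and the other 11 stayed under 50 CPM in both groups. The median log2 ratio of the 16 members with a mean of 1 CPM was 5.91, beside 0.18 for all genes. Itga2b had between 0 and 7 UMIs per Pf4 cell with a median of 1, against 0 to 4 with a median of 0 in the other MEP cells. Its summed level was 238 CPM in Pf4 cells and 2.46 CPM in the other MEP cells, a log2 ratio of 6.60 (95% interval 6.32 to 6.88). Itga2b was thus detected in 72.4% of Pf4 cells and 2.90% of the others, although the ranges overlapped. Thinned to 3000 UMIs per cell, the shares were 51.0% and 1.16%.

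Itgb3 was rare by comparison. It had 21 UMIs in Pf4 cells and 5 in the other MEP cells, 21.7 and 0.0630 CPM (log2 ratio 8.43, 6.98 to 10.19), and was seen in 12.4% and 0.0814% of cells. At this depth, most Pf4 cells had no Itgb3 UMI. The glycoprotein Ib-IX-V complex, which binds von Willebrand factor, was uneven. Gp1bb stood at 305 CPM in Pf4 cells and 1.34 CPM in the other MEP cells, a 228-fold ratio, and Gp9 at 160.5 and 5.04 CPM, a 31.8-fold ratio. Gp5 was at 145 CPM in Pf4 cells and 35.8 CPM in the others, where 34.2% of cells had a UMI. Gp1ba, the chain that contacts the ligand, had 1 UMI in Pf4 cells and 111 in the others, 1.04 and 1.40 CPM. The tetraspanin Cd9 was the highest receptor-linked gene of the list at 849 CPM in Pf4 cells and 21.8 CPM in the other MEP cells, and was seen in 90.3% of Pf4 cells. Treml1, an alpha granule receptor exposed on activated platelets, stood at 107.7 and 0.794 CPM. Clec1b (CLEC-2, the podoplanin receptor) had 24 UMIs in 14 Pf4 cells and 3 UMIs elsewhere, and Gp6, the collagen receptor, had 3 UMIs and 0.

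Signalling genes downstream of platelet agonists behaved alike. Of 23 genes, 13 were counted as higher and 0 as lower, with a median log2 ratio of 3.68 over the 21 members with a mean of 1 CPM. Plek (pleckstrin, the main protein kinase C substrate of platelets) was at 202 CPM in Pf4 cells and 1.31 CPM in the other MEP cells. Of the thrombin receptors, F2r (PAR1) was at 98.3 and 9.97 CPM, F2rl2 (PAR3) at 56.9 and 0.202 CPM, and F2rl3 (PAR4) at 21.7 and 1.93 CPM. F2rl2 is the cofactor that mouse platelets use together with PAR4. The small GTPase Rap1b, which switches the fibrinogen receptor on, was found in 97.9% of Pf4 cells and 56.1% of the others, at 824 and 71.7 CPM, and its exchange factor Rasgrp2 stood at 150.1 and 7.63 CPM. Ptgs1 and Tbxas1, successive enzymes of thromboxane synthesis, stood at 61.1 and 0.429 CPM and at 77.6 and 0.643 CPM. Gucy1a3, a subunit of the nitric oxide receptor guanylate cyclase, stood at 67.3 and 0.139 CPM, and the caveolar protein gene Sdpr at 325 and 1.803 CPM. Lyn was the signalling gene nearest to parity, at 13.5 and 9.55 CPM (log2 ratio 0.50, -0.42 to 1.28).

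Granule cargo, a list that includes Pf4, had the largest median ratio of the lists described here. The list also held genes with few or no UMIs. Of 17 genes, 7 were counted as higher and 0 as lower. The median log2 ratio of the 13 members with a mean of 1 CPM was 7.17. Pf4, the gene of the rule, is among the 7 and the 13, and no list values without it are given. Pf4 took 5895 CPM in Pf4 cells and 5.01 CPM in the others. Serpine2 (protease nexin 1, a thrombin inhibitor) stood at 206 and 0.630 CPM, and Vwf at 82.8 and 2.46 CPM. Ppbp, the neighbouring chemokine gene of Pf4, had 46 UMIs in 17 Pf4 cells, up to 11 in 1 cell, and 6 UMIs in the other MEP cells. Selp (P-selectin) had 29 UMIs in Pf4 cells and 14 elsewhere. F13a1, Pdgfa and Sparc had 0 UMIs in Pf4 cells and Thbs1 had 1, and these 4 are named for their low counts. Srgn (serglycin, the granule proteoglycan) was present in 145 Pf4 cells and 97.8% of the others, at 960 and 448 CPM. Machinery that builds and releases granules differed less: 2 of 17 genes, Rab27b (172 and 2.47 CPM) and Cd63 (289.9 and 88.8 CPM), were counted as higher, and the list median was 1.08. Vamp8, the main release SNARE of platelets, was at 568 and 414 CPM. Nbeal2, the gray platelet syndrome gene, had 9 UMIs in Pf4 cells and 62 in the much larger group of other MEP cells. It was seen in 6.21% of Pf4 cells and 0.928% of the others, so on few counts its share was higher in Pf4 cells.

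Cytoskeletal genes gave a mixed list. Of 20 genes, 7 were counted as higher and 0 as lower, with a median of 1.35. The largest of these were Tuba8 at 81.8 CPM in Pf4 cells and 2.26 CPM in the other MEP cells, and Zyx (zyxin) at 74.5 and 5.31 CPM. Tln1 (talin) and Fermt3 (kindlin-3), both needed to activate integrins, were at 351 and 155 CPM and at 284 and 121 CPM. Pdlim1 was lower in value, at 90.1 and 135.7 CPM. Tmsb4x (thymosin beta 4, which holds actin monomers), a gene outside the lists that was chosen after its values were seen, took 9833 CPM in Pf4 cells and 189 CPM in the others.

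**Figure D2:**
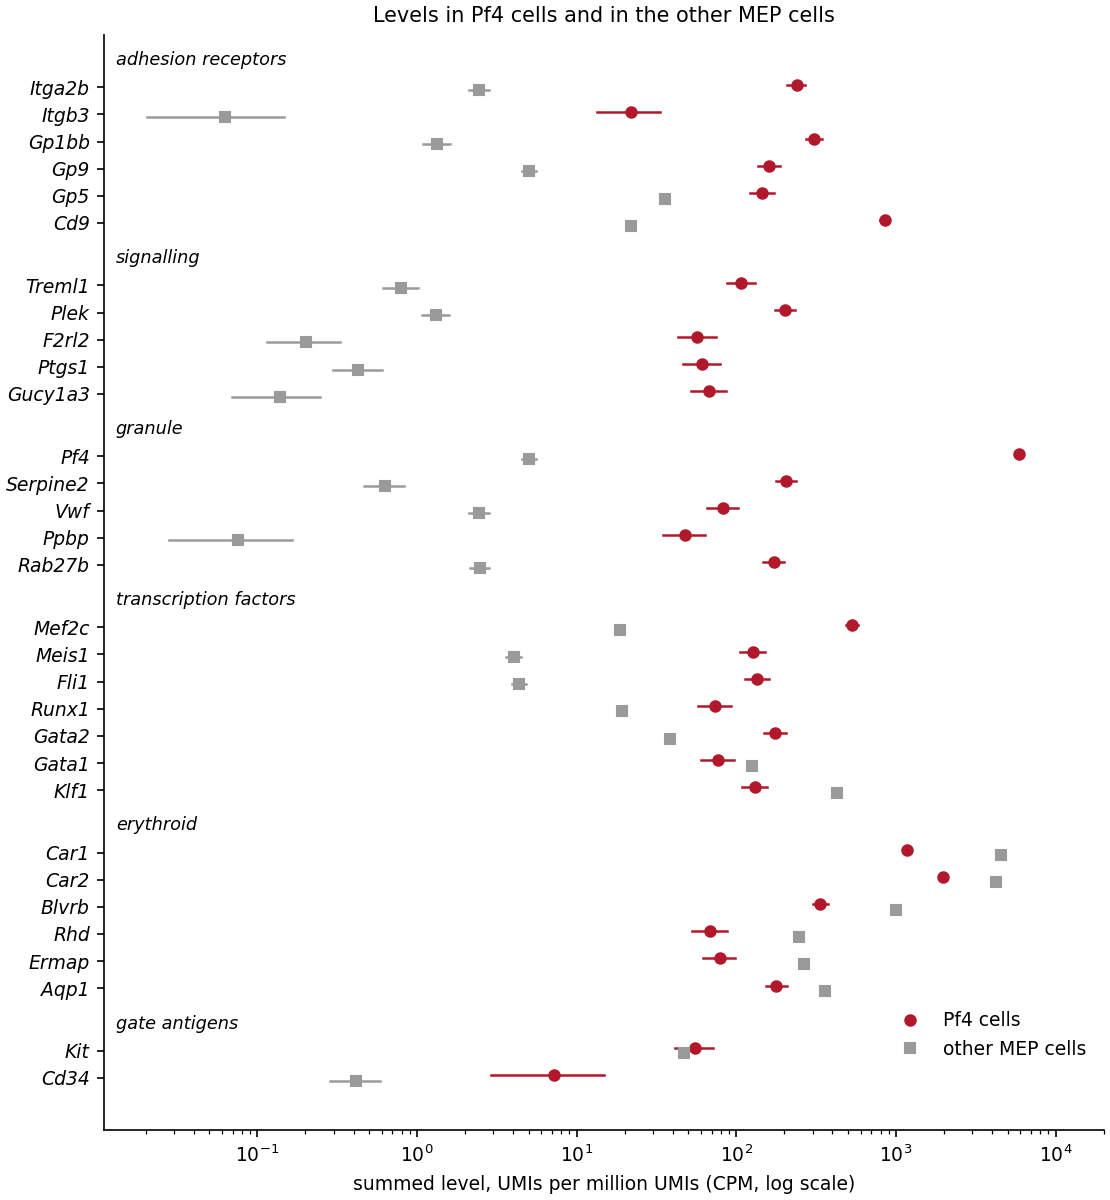
Summed levels in CPM (log scale) of genes in 6 groups, with red circles for the 145 Pf4 cells and grey squares for the 6139 other MEP cells; bars are 95% exact Poisson intervals of the counts and cover counting error only. Platelet genes lie to the right in Pf4 cells (Itga2b at 238 against 2.46 CPM), erythroid genes to the left (Car1 at 1169 against 4554 CPM), and Kit lies at 54.9 against 46.7 CPM.

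Among 22 transcription factors of the megakaryocyte and erythroid branches, 6 were counted as higher and 2 as lower. The homeobox factor Meis1 was at 127.3 CPM in Pf4 cells and 4.02 CPM in the other MEP cells. Mef2c stood at 533 and 18.7 CPM and was found in 94.5% of Pf4 cells. The ETS factor Fli1, which drives platelet genes and opposes KLF1, was at 135.6 and 4.36 CPM. Gata2 was at 175 and 38.2 CPM and Runx1 at 73.5 and 19.2 CPM. These 5 genes were present in each band of Pf4 UMIs described below.

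The shared and erythroid factors showed another pattern. Klf1 was lower in Pf4 cells, at 130.4 CPM against 425 CPM in the other MEP cells (log2 ratio -1.70, -1.97 to -1.45), and Klf3 stood at 33.1 and 75.5 CPM. Gata1, which both branches need, was at 76.6 and 125.7 CPM (log2 ratio -0.71, -1.06 to -0.39), a difference under 2-fold. In the 131 erythroid-poor cells Gata1 stood at 62.5 CPM, which was past 2-fold (log2 ratio -1.01), and Nfe2 and Lmo2 passed it upward there (1.15 and 1.01). Over all 145 Pf4 cells Nfe2, the factor of late platelet formation, was at 104.6 and 53.4 CPM, and Gfi1b at 87.0 and 92.2 CPM. Tal1, Zfpm1, Lmo2, Ldb1 and Lyl1 lay between log2 ratios of -0.45 and 0.87.

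Erythroid genes were low but not absent. Of 28 markers, 20 were counted as lower and 0 as higher, and the median log2 ratio was -1.70 over 27 members. Car1 stood at 1169 CPM in Pf4 cells and 4554 CPM in the other MEP cells, with 0 to 140 UMIs per Pf4 cell and a median of 2. Rhd and Ermap, blood group genes of the red cell surface, were at 68.3 and 247 CPM and at 78.7 and 263.5 CPM. Blvrb was at 335 and 999 CPM and the water channel Aqp1 at 178 and 360 CPM. The globin genes Hba-a1 and Hbb-bt were at 27.9 and 106.7 CPM and at 13.5 and 58.1 CPM, although their near-identical copies make the split between copies uncertain. Epor, the erythropoietin receptor, was the 1 member past 50 CPM within 2-fold, at 51.8 and 93.8 CPM. Without the 14 erythroid-rich cells the list median was -2.60, Car1 was at 436 CPM and Klf1 at 67.8 CPM in the remaining 131 cells. Against 976 other MEP cells of like depth (4452 to 7394 UMIs) the list median was -0.94. These 976 cells differed from all other MEP cells in more than depth. Their erythroid UMIs had a median of 9.83 per 1000, against 11.99 in all other MEP cells. Of the 976, 41 held 1 to 4 Pf4 UMIs. How much of a shift against them came with depth alone was not tested.

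Heme synthesis genes were lower by less. Of 11 genes, Alad, Cpox and Slc25a38 were counted as lower and 0 as higher, with a median of -0.75. Cpox was at 98.3 CPM in Pf4 cells and 228 CPM in the other MEP cells. Of the 11 members, 2 had log2 ratios above 0. Alas2, the erythroid-specific first enzyme, had 3 UMIs in Pf4 cells and 78 in the others. These came from totals of 965994 and 79307127 UMIs, so on few counts its share was not lower in Pf4 cells.

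Genes of the sort gate were near parity or scarce. Kit was at 54.9 CPM in Pf4 cells and 46.7 CPM in the other MEP cells (log2 ratio 0.23, -0.19 to 0.62). Cd34 had 7 UMIs in Pf4 cells (7.25 CPM) and 33 in the others (0.416 CPM). Ly6a, which encodes SCA1, and Fcgr3 and Fcgr2b, which encode CD16 and CD32, had 0 UMIs in Pf4 cells. Of 13 stem and multipotent markers, Myct1 (102.5 and 2.67 CPM) and Angpt1 (179 and 8.25 CPM) were counted as higher and 0 as lower, and Angpt1 is also platelet cargo. Procr and Flt3 had 0 UMIs in Pf4 cells, Mecom had 12 and Slamf1 (CD150) had 16.

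Cell cycle genes were read by phase, and the direction for G2 and mitosis depended on the comparison cells. Summed over 22 S phase genes, Pf4 cells had 2564 CPM and the other MEP cells 2566 CPM (log2 ratio -0.00, -0.06 to 0.06). Summed over 24 genes of G2 and mitosis, the sums were 2120 and 2980 CPM (log2 ratio -0.49, -0.55 to -0.43). Cenpa, at 162.5 and 378 CPM, was the 1 gene of that list counted as lower. Mki67 was at 154 and 204 CPM and was found in 30.3% and 38.5% of cells thinned to 3000 UMIs. This difference moved with the comparison cells: in the 976 cells of like depth Mki67 stood at 131 CPM, below its value in Pf4 cells. The median log2 ratio of the G2 and mitosis list was -0.48 against all other MEP cells and 0.30 against those of like depth, so it has no direction that holds for both. Of 17 cyclins and inhibitors, Ccnd1 (50.7 and 15.7 CPM), Ccnd2 (349 and 151 CPM) and Cdkn2d, the p19 inhibitor (96.3 and 15.04 CPM), were counted as higher, and Ccne1 as lower (35.2 and 98.0 CPM).

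Immediate early genes were higher against the whole gate, and 4 of them were not against cells of like depth. Of 16 genes, 9 were counted as higher and 0 as lower, with a median of 1.72. Jun stood at 773 CPM in Pf4 cells, 177 CPM in the other MEP cells and 551 CPM in those of like depth. Fos stood at 269 CPM, 97.1 CPM and 385 CPM in the same order. The log2 ratios of Fos, Dusp1, Ier2 and Junb were 1.47, 1.66, 1.10 and 1.02 against all other MEP cells, and -0.52, -0.38, -0.17 and -0.026 against those of like depth. For these 4 genes no direction holds for both comparison groups.

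Markers of other lineages were mostly near 0, with a few exceptions. Of 16 granulocyte-monocyte markers, Mpo, Cebpe, Csf1r, Ly6c2 and Ly86 had 0 UMIs in Pf4 cells, and Elane and Ctsg had 1 each. The summed list was at 327 CPM in Pf4 cells and 29.1 CPM in the other MEP cells, most of it Lyz2 (lysozyme), which stood at 218 and 2.32 CPM and was found in 72.4% and 1.91% of cells. Prtn3 was at 52.8 and 8.90 CPM. The list median was 1.82, and -0.093 against cells of like depth. Of 12 lymphoid markers, 10 had 0 UMIs in Pf4 cells. Nkg7 was at 377 and 40.2 CPM. Cd79b had 26 UMIs in Pf4 cells and 106 in the other MEP cells, and was seen in 15.9% and 1.53% of cells. The 4 eosinophil markers had 0 UMIs in Pf4 cells, and the 8 basophil and mast, 8 macrophage and 9 endothelial and stromal markers summed to 7.25, 7.25 and 16.6 CPM, against 6.04, 0.416 and 4.72 CPM in the other MEP cells. The part of these cells or of free RNA in the platelet and erythroid results was not tested.

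Among the Pf4 cells, more Pf4 went with more platelet RNA. In the bands of 5 to 9, 10 to 19, 20 to 49 and 50 or more Pf4 UMIs, with 21, 34, 45 and 45 cells, the other megakaryocyte markers stood at 642, 1014, 1279 and 1940 CPM. Just outside, the 19 cells with 3 or 4 UMIs had 563 CPM, the 307 cells with 1 or 2 had 72.5 CPM and those with none had 50.3 CPM. The cells with 3 or 4 UMIs were therefore close to the lowest Pf4 band in these markers. Erythroid UMIs per 1000 had medians of 3.57, 3.28, 2.44 and 1.86 in the same 4 bands. Depth also differed, with medians of 4675, 4618.5, 5383 and 6960 UMIs per cell. The 4 bands held 5, 2, 5 and 2 of the erythroid-rich cells, which were not left out of the band values.

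Single genes split into those that followed Pf4 and those that did not. Over these 4 bands Serpine2 was at 47.6, 110.9, 185 and 333 CPM, and Gp1bb at 150.6, 201, 248 and 469 CPM. Ppbp, on 2, 0, 15 and 29 UMIs, was at 15.9, 0, 49.6 and 83.4 CPM. Itgb3, on 0, 1, 3 and 17 UMIs, was at 0, 5.28, 9.92 and 48.9 CPM. These platelet genes were highest in the top band. Gata2, at 222, 163.7, 138.8 and 195 CPM, and Fli1, at 142.7, 126.7, 115.7 and 155 CPM, had no such order. The split did not follow gene class. Mef2c, at 396, 428, 555 and 621 CPM, rose over the bands. Runx1 values also rose, at 47.6, 63.4, 66.1 and 94.9 CPM, but on only 6, 12, 20 and 33 UMIs. Gp9, at 103, 121, 198 and 169.6 CPM, was highest below the top band. Over the 145 cells the share of Pf4 had a Spearman correlation of 0.75 with that of Tmsb4x, 0.58 with the 13 other markers and -0.51 with the erythroid markers, and 0.71, 0.50 and -0.39 over the 131 erythroid-poor cells. These are descriptions across cells of 1 library, which share its depth and its UMI totals.

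**Figure D3:**
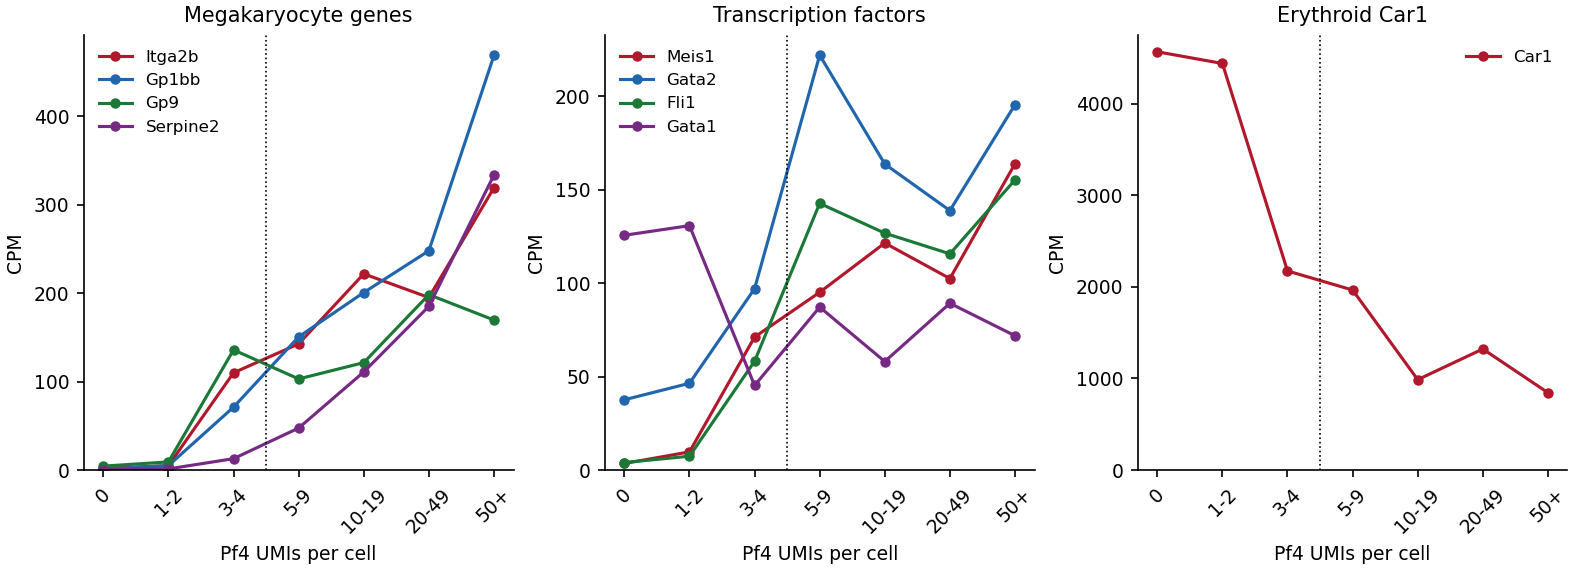
Summed CPM by band of Pf4 UMIs per cell, low to high, with the dotted line at the threshold of 5 UMIs. Gp1bb and Serpine2 are highest at 50 or more UMIs (469 and 333 CPM), Gata2 is between 138.8 and 222 CPM in each band above the threshold, and Car1 is at 845 CPM in the top band.

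Clustering without Pf4 placed the cells together. Of 17 Leiden clusters, 1 cluster of 240 cells held 141 of the 145 Pf4 cells (97.2%), and the other 4 were erythroid-rich. The same cluster held 52 cells with 1 to 4 Pf4 UMIs and 47 cells with none. In these 3 sets Itga2b was at 254, 131 and 67.7 CPM and Serpine2 at 217, 18.2 and 12.7 CPM. Gata2 was at 181, 179 and 173 CPM, and Prtn3 at 54.3, 135 and 288 CPM. Lyz2, another granulocyte-monocyte marker, was at a like level in all 3 sets, at 233, 186 and 203 CPM. Elane, S100a8 and Mpo were high only in the set with no Pf4 UMI. Elane was at 1.11, 0 and 600 CPM, S100a8 at 5.54, 7.29 and 499 CPM, and Mpo at 0, 0 and 186 CPM. Whether that set mixes cell types was not tested. The neighbours with few or no Pf4 UMIs thus had Gata2 at a like level, with lower Serpine2 and higher Prtn3. They were also shallower, with medians of 4286.5 and 4267 UMIs per cell, against 5444 for the Pf4 cells of the cluster. These genes took part in the clustering, so the values describe the cluster.

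The same rule was applied in the CMP gate. The 128 Pf4 cells of CMP had a median of 7359.5 UMIs per cell and 44.5 Pf4 UMIs, against 5565 and 28 in MEP. Between Pf4 cells of MEP and those of CMP, 60 of 3053 genes were higher (1.97%) and 53 were lower (1.74%). Gate and library are the same thing here and cannot be told apart. The platelet receptors gave no call: of the 19 adhesion receptors 0 were counted in either direction, with a median log2 ratio of -0.31, and -0.04 without the 14 erythroid-rich cells. Itga2b stood at 238 CPM in MEP and 350 CPM in CMP, Gp9 at 160.5 and 173.6 CPM, and Gp5 at 145 and 155 CPM. Gata2 stood at 175 and 165 CPM. In the 131 erythroid-poor Pf4 cells of MEP, Itga2b stood at 290 CPM, Gp9 at 191 CPM and Gata2 at 202 CPM.

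Several erythroid and granulocyte-monocyte genes were among those that set the 2 sets of Pf4 cells apart. The largest ratios upward in MEP were those of Car1 (1169 and 5.23 CPM), Mt2 (120.1 and 2.09 CPM), Ermap, Ctse and Rhd, the last 3 with 0 UMIs in the CMP cells. The largest downward were those of Mpo (0 and 135.9 CPM), Ctsg (1.04 and 118 CPM), Elane (1.04 and 63.8 CPM), Cd52 (8.28 and 54.4 CPM) and Gmfg (80.7 and 407 CPM). Of 28 erythroid markers, 10 were counted as higher in Pf4 cells of MEP and 0 as lower, with a median of 2.26, and 1.71 without the erythroid-rich cells. Of 16 granulocyte-monocyte markers, 5 were counted as lower and 0 as higher. The 24 genes of G2 and mitosis had a median of -0.63, with Mki67 at 154 and 237 CPM.

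Set against the rest of its own gate, each group of Pf4 cells was high in many of the same genes. Of the genes counted as higher, 100 were so in both gates, which is 39.2% of the 255 in MEP and 51.5% of the 194 in CMP. In CMP those 194 were 6.41% of the genes tested, and 166 genes were lower (5.48%). The adhesion receptors had median log2 ratios of 5.91 in MEP and 4.19 in CMP. Immediate early genes had medians of 1.72 in MEP and -1.14 in CMP, and erythroid markers -1.70 and 0.26. The rest of each gate differs, so these ratios have different comparison cells.

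**Figure D4:**
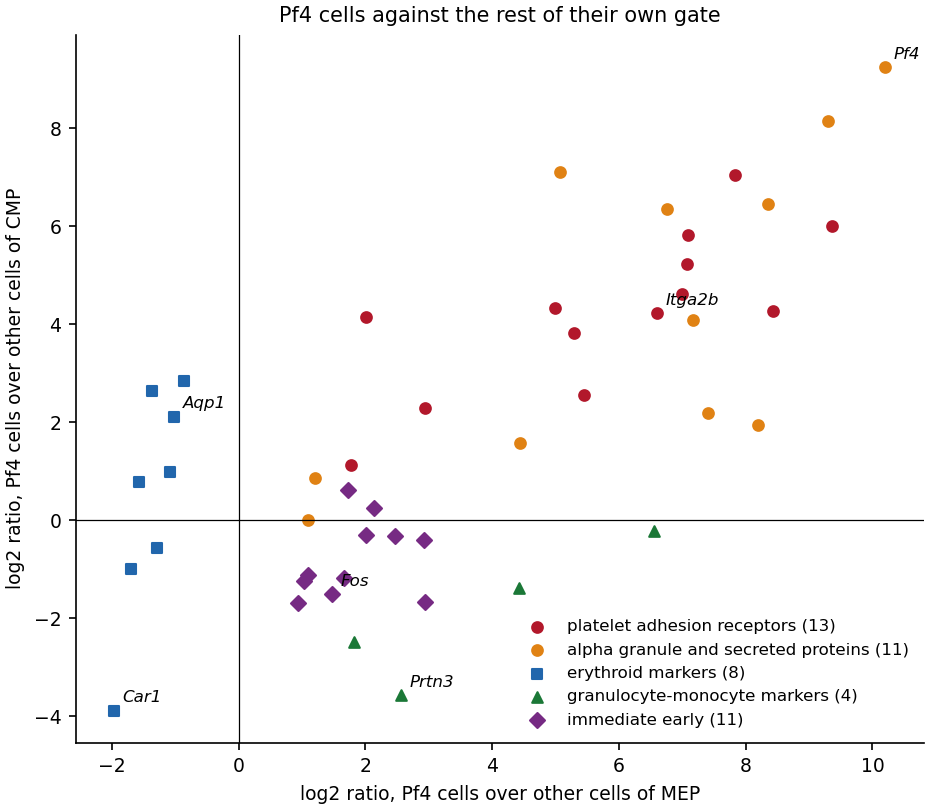
Log2 ratios of Pf4 cells over the other cells of the same gate, in MEP (horizontal axis) and in CMP (vertical axis), for members of 5 gene lists at 10 CPM or more in both gates. Pf4 and the platelet genes lie high in both (Itga2b at 6.60 and 4.23), while Prtn3 (2.57 and -3.57) and Fos (1.47 and -1.52) lie on opposite sides.

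In LSK the rule reached cells with less Pf4. Its 192 cells had a median of 7 Pf4 UMIs, and 56.1% of the Pf4 UMIs of that library, against 93.5% in MEP, lay in cells past the threshold. Against the rest of LSK, its Pf4 cells had 38 genes higher and 38 lower (1.23% each), and 26 genes were higher in both gates, 10.2% of the 255 in MEP and 68.4% of those in LSK. Pf4 cells of MEP had 85 genes higher (2.66%) and 179 lower (5.61%) than those of LSK. The adhesion receptors had a median log2 ratio of 0.67, with 3 of 19 counted as higher, and the stem and multipotent markers one of -1.89, with 5 of 13 counted as lower. The 13 other megakaryocyte markers stood at 1382 CPM in the MEP cells, 1785 CPM in the CMP cells and 651 CPM in the LSK cells. In the 131 erythroid-poor Pf4 cells of MEP they stood at 1676 CPM.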

How the data were processed

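Per the labels' protocols, 10x Genomics 3' libraries of sorted cells were sequenced on an Illumina HiSeq. The mm10 build, Seurat 2.3.0, Cell Ranger 2.0.0 and CASAVA 1.8.2 are named in the submitters' processing notes. The deposited matrices hold raw UMI counts per gene and barcode, not normalized. The 5 samples gave 4 libraries, since the 2 CMP matrices were identical and were counted once. The CMP matrix holds 3738 barcodes of the 12185 stated cells, and the remainder were not analysed here. Of the 737280 LSK barcodes, the deepest 10882 were kept as cells, the number the design text states. Kept cells had median depths of 12578 UMIs in MEP, 6904 in CMP, 5991.5 in LSK and 9100 in GMP.

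UMIs were summed per group of cells (Python 3.11.15, numpy 2.4.6, scipy 1.17.1, scanpy 1.11.5). With 1 library per gate, ratios of sums carry exact conditional binomial 95% intervals, shares exact Clopper-Pearson ones, and both cover counting error only. Counts under 3 were set to 3 in ratios. Doublet scores came from comparison with simulated pairs, and doublets were kept. The contrast was tested on simulated data. Genes were named by a fixed rule: Pf4, Itga2b and Itgb3, the 10 largest ratios in each direction, members of 20 gene lists at 10 CPM or more, gate antigens, defining markers of other cell types, and the 5 largest ratios in each direction between MEP and CMP. Other genes of the lists are given for their low counts, and were chosen after their values were seen. Some named genes are not reported here. Members and lists were chosen with earlier results of these data known.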

Additional observations from a re-analysis of the deposited data

Results flagged for a closer look

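For 6 genes of the lists, Pf4 cells differed from the rest of their gate in opposite directions in MEP and in CMP, past 2-fold in both. Aqp1 had a log2 ratio of -1.02 in MEP, at 178 CPM in Pf4 cells and 360 CPM in the others, and 2.12 in CMP, at 62.7 and 14.5 CPM. Prtn3 had 2.57 in MEP, at 52.8 and 8.90 CPM, and -3.57 in CMP, at 149.5 and 1777 CPM. Fos had 1.47 in MEP and -1.52 in CMP. Dusp1 had 1.66 and -1.18, Ier2 had 1.10 and -1.11, and Junb had 1.02 and -1.25. Against MEP cells of like depth, Fos, Dusp1, Ier2 and Junb had -0.52, -0.38, -0.17 and -0.026, so their direction in MEP depended on the comparison cells. With 1 library per gate the difference was not tested. The levels of Fos within Pf4 cells were 269 CPM in MEP and 285 CPM in CMP, and those of the comparison cells 97.1 and 817 CPM.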

How the results depend on the processing

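No paired analysis was possible because each gate had 1 library and no result comes from a test. The rule applied after thinning each cell to 5000 UMIs left 84 Pf4 cells, and the median of the adhesion receptors was then 6.51. That median was 3.60 against cells of like depth and 5.21 as a mean over cells. The erythroid median was -0.94 against cells of like depth and -2.60 without the erythroid-rich cells, an alternative added after seeing the data. The genes lower numbered 170 without high doublet scores, 179 under median-of-ratios and 179 under TMM scaling, and 190 without the erythroid-rich cells. Against cells of like depth 159 genes were higher, of which 158 were among the 255, and 70 were lower, of which 47 were among the 104. A minimum of 10 CPM gave 990 higher and 303 lower, and no minimum beyond 3 counts gave 5320 and 414. The 5320 cannot be read as genes higher in Pf4 cells. The floor of 3 UMIs was 3.11 CPM in Pf4 cells and 0.0378 CPM in the others. A gene with 0 UMIs in Pf4 cells could thus be counted as higher. Thinned to 3000 instead of 5000 UMIs, Itga2b was found in 51.0% of Pf4 cells instead of 69.7% and Car1 in 75.9% instead of 87.6%; thinning to 5000 left 89 Pf4 cells and to 3000 kept all 145, so the shares cover different cells. The summed G2 and mitosis ratio was -0.63 without high doublet scores. Of the lists and named genes with log2 ratios past 1 either way, signs turned only against cells of like depth: the granulocyte-monocyte median to -0.093, Dusp1 to -0.38, Fos to -0.52, Ier2 to -0.17 and Junb to -0.026. The G2 and mitosis median, at -0.48, turned to 0.30 there, and Mki67, within 2-fold, stood at 154 CPM in Pf4 cells and 131 CPM in those cells. Of 1023 values of 93 genes past 2-fold under 11 alternatives, 742 stayed within their counting interval, 277 lay outside it with the same sign and 4 changed sign. The causes were not tested. Shallow depth limits absence: a gene with 0 UMIs in Pf4 cells may still be present, and in ratios it was set to 3.11 CPM. Thresholds of 3 or 10 Pf4 UMIs gave 164 and 124 cells.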
